A study of Homo sapiens with 12 samples.

Results

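The genes described here supply cells with amino acids and carry the stress response run by the transcription factor ATF4. They were 38 symbols, listed by name with earlier results of these data known. The list held 11 amino acid transporters, 12 enzymes of amino acid and folate metabolism, and 15 regulators and stress effectors. Of these, 37 had a named probe (57 probes in all), and 32 passed a limit set on presumed silent genes and were tested, of 12122 genes tested in the whole series. They comprised 10 transporters, 9 enzymes and 13 regulators. GPT2 was not analysed here, and CHAC1, FGF21, PSAT1, ALDH1L2 and SLC1A4 did not pass the limit.

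RNA was measured on 12 single-colour bead arrays, one per sample, of a derivative of the prostate cancer line C4-2B, named C4-2B/181 or C4-2B/Rx2dox, in which doxycycline (dox) switches on the osteoblast transcription factor RUNX2. The labels give 4 groups of 3 biological replicates: DHT with dox, dox alone, the androgen dihydrotestosterone (DHT) alone, and ethanol vehicle. All cultures grew with 10% FBS and then spent 48 h in medium without phenol red and with 5% charcoal-stripped serum. The labels state 48 h of treatment with 10 mM DHT or 250 µg/ml dox, amounts far above common use. The vehicle cultures carry the same inducible cassette, and no group of the parental line with dox was included, so RUNX2 and dox itself cannot be told apart.

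When amino acids run short, or when proteins misfold in the endoplasmic reticulum, kinases phosphorylate the translation factor eIF2. General protein synthesis then slows while ATF4 mRNA is translated better, so ATF4 activity can change without a change in its mRNA. ATF4 pairs with C/EBP factors on a short DNA element and switches on amino acid importers, enzymes that make serine, asparagine and proline, and further stress genes. The same importers and enzymes also feed growth, and are known targets of MYC and of mTORC1 signalling in tumours.

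Several facts of the whole series touch every result. Intensities are linear units on a scale where 147.5 is the background limit, the 95th percentile of probes for olfactory receptor and similar genes presumed silent. The brighter RUNX2 probe read 258.6 to 331.1 on DHT with dox arrays and 244.6 to 293.1 on dox arrays, against 270.9 to 313.0 on DHT arrays and 206.8 to 225.8 on vehicle arrays. The dimmer RUNX2 probe read 144.1 to 174.8 on DHT with dox and 159.5 to 181.3 on dox arrays. It read 145.7 to 175.2 on DHT and 160.1 to 179.2 on vehicle arrays, so its ranges overlapped. Neither probe was shown to tell an induced copy from the cell's own gene. The prostate markers went against the labelled line: of 10 with a probe, 3 were above the limit on all 12 arrays (TMPRSS2, SLC45A3 and MSMB), KLK2, FOLH1 and STEAP2 were above it on 0 arrays, and KLK3 on 1. Of 10 breast luminal markers, 7 were above it on all arrays, ESR1 among them, and SCGB2A2 and ANKRD30A on 0. The summed intensity of the breast markers was 60548 to 63459 on DHT with dox arrays and 65893 to 67633 on dox arrays, against 43509 to 46825 on DHT arrays and 49348 to 50551 on vehicle arrays. This sum weighs the brightest genes most, and ESR1 went the other way. ESR1 read 2157.4 to 2690.1 on DHT with dox arrays, against 3408.0 to 3527.5 on DHT arrays. On dox arrays ESR1 read 2591.1 to 3083.5, against 3825.5 to 4711.4 on vehicle arrays. The summed intensity of the prostate markers was 1822 to 1920 and 1718 to 1778 on the same 2 dox groups, against 2588 to 2799 on DHT and 2035 to 2161 on vehicle arrays. The part of these shifts in the results below was not tested. Of fibroblast, immune and endothelial markers, 0 of 6, 0 of 4 and 0 of 4 were above the limit on all arrays.

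Promoters from RefSeq (build GRCh38.p14, 250 bases before to 50 after the start) were matched for 29 of the 38 genes. NUPR1, EIF4EBP1, PSPH, SHMT2, ALDH1L2, PYCR1, GPT2, SLC7A11 and SLC7A2 had no entry. The core of the ATF4 and C/EBP response element, TGATGNAA on either strand, occurred in promoters of 10 of the 29 genes, against 4.46% of the 27305 genes in the table. This is a description of letters and not of binding, and the genes were listed because many of them are known ATF4 targets. Each match follows with its flanks, read so that the core (capitals) runs forward, with 10 bases on each side except where the window ended, because the dox results are read against it.
ASNS: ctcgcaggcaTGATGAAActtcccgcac
CEBPG: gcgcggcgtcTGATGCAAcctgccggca
SLC1A5: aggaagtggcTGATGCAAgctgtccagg
SLC3A2: ggagcTGATGTAAggagtcctgc
SLC7A1: ggcgcactgcTGATGAAAcctggcgccg
SLC38A1: cagacccgaaTGATGAAAagggatcagc
ATF3: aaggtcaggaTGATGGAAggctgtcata
CHAC1: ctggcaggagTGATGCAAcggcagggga
FGF21: tcctcctcccTGATGCAAtcctggtgtt
SLC1A4: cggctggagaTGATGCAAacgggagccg

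The ASNS match lies at chr7:97872459-97872486 on the minus strand, with the core starting at position -68. Positions are counted from the start of the promoter entry, which for ASNS lies inside the gene's outer bounds (97851677 to 97928441). The cores of SLC3A2 (chr11:62881726-62881748, minus strand) and SLC7A1 (chr13:29595664-29595691, minus strand) start after the start site of their entries, at positions 38 and 8. The matches of CEBPG (chr19:33374061-33374088, plus strand) and SLC1A5 (chr19:46784894-46784921, minus strand) belong to alternative starts of these genes. Those of ASNS, SLC3A2, SLC38A1 and SLC1A4 likewise belong to starts inside the outer bounds of their genes. The letters CACGTG, the E-box read by MYC and its relatives, occurred in promoters of 5 of the 29 genes (SLC7A5, SLC1A5, SLC43A1, ALDH18A1 and ATF4), against 8.77% of all genes. TGTGGT, a core read by RUNX factors, occurred in 1 (SLC38A1), against 15.6%. No match says only that the letters are absent from this window. The 250 bases before the SLC7A5 start (chr16:87869508-87869757, minus strand) are shown because SLC7A5 changed most, with the E-box in capitals, beside those of ASNS (chr7:97872409-97872658, minus strand) with its response element core in capitals.
SLC7A5: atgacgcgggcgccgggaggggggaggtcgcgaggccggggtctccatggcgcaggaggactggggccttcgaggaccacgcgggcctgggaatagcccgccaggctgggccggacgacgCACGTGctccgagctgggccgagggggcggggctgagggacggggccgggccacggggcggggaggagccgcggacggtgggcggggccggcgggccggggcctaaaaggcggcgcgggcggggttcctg
ASNS: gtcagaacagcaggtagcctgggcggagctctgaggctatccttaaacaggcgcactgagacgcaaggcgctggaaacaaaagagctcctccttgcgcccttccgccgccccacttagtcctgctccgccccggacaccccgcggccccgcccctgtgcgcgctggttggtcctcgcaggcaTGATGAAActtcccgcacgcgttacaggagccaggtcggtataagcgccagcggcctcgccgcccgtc

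The importer of large neutral amino acids stood out on the arrays with dox. Both of its chains, SLC7A5 and the heavy chain SLC3A2, rose more than 2-fold on dox arrays, and the cationic amino acid importer SLC7A1 rose with them. Of the 32 genes tested, 13 were higher and 2 lower in dox against vehicle at a limma adjusted p of 0.05. That is 40.6% higher and 6.25% lower, where 32.8% of all genes tested were called, 16.1% higher and 16.7% lower. The genes were chosen with earlier results of these data known, so their shares here and below are not independent of that choice. Called changes of at least 1.5-fold were found in 6 of the 32 genes, and in 733 of all 12122 genes tested (6.05%). The median log2 fold change was 0.15 over the 32 genes and -0.006 over all genes. In DHT with dox against DHT, 10 were higher and 3 lower (31.2% and 9.38%), where 33.5% of all genes were called, 14.3% higher and 19.2% lower. There 5 of the 32 were called at 1.5-fold or more, where 745 of all 12122 genes (6.15%) were. The medians were 0.01 over the 32 genes and -0.02 over all genes. The 2 comparisons share no arrays. In both of them 10 of the 32 genes rose, where 1251 of all 12122 genes (10.3%) did. Only DDIT4 of the 32 fell in both, where 1551 of all genes (12.8%) did. Of the 32, 0 passed in opposite directions. Over the 32 genes the 2 sets of changes correlated at 0.956, and over all genes at 0.862. Both coefficients only describe these arrays, since genes within a sample depend on each other.

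**Figure D1:**
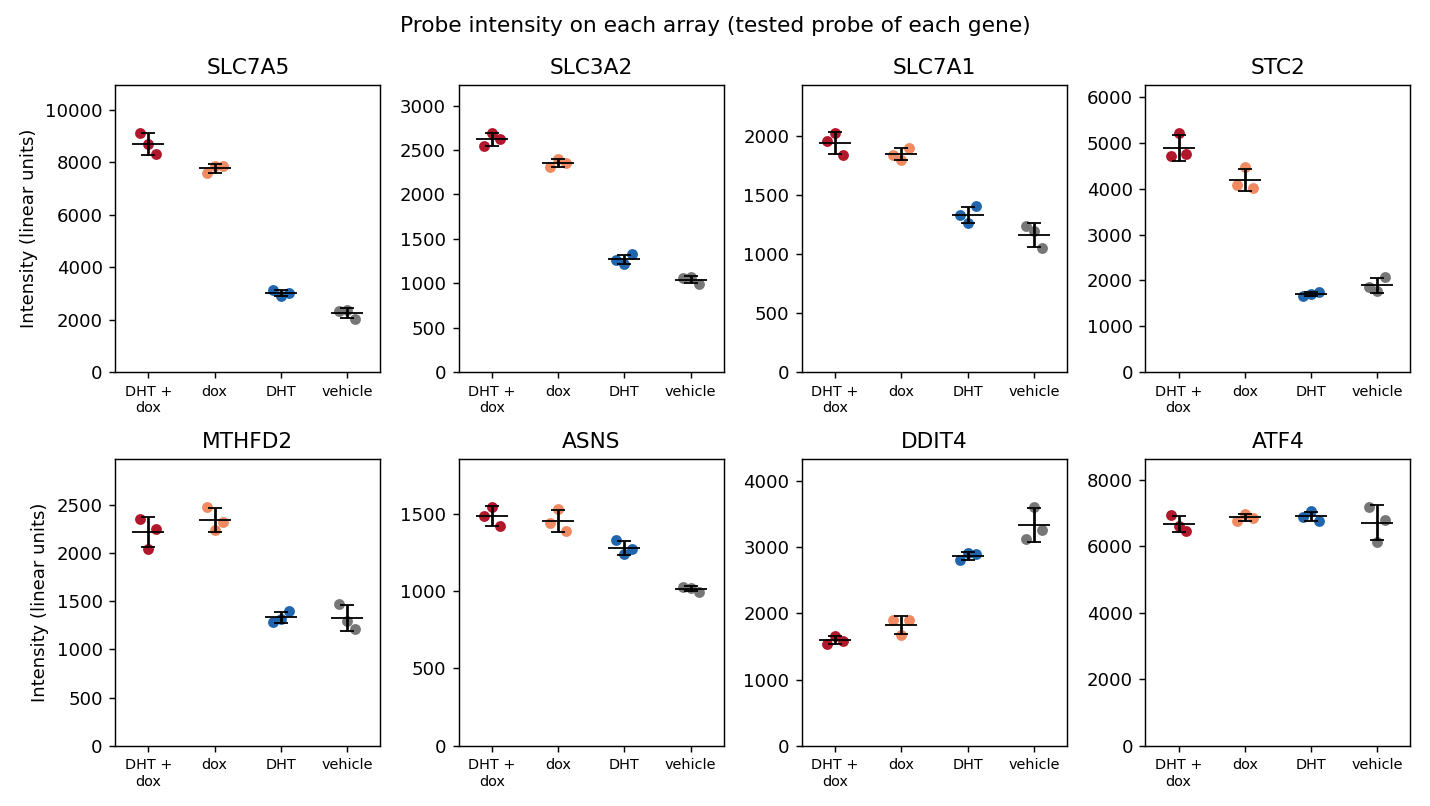
Probe intensity (linear units, axis from 0) on each of the 12 arrays for 8 genes, grouped as DHT with dox, dox, DHT and vehicle, with points for arrays and black bars for the group mean ± SD (n = 3). SLC7A5, SLC3A2, SLC7A1, STC2, MTHFD2 and ASNS are higher and DDIT4 is lower on every array with dox than on every array without it. ATF4, by its brightest probe, overlaps between all groups.

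Transporters were led by SLC7A5, which encodes the light chain that exchanges leucine and other large neutral amino acids. It read 7579, 7871 and 7871 on dox arrays, against 2335, 2378 and 2037 on vehicle arrays. On DHT with dox arrays it read 9123, 8695 and 8298, against 3115, 2893 and 3014 on DHT arrays. Every array with dox was thus above every array without it. The change was 3.46-fold without DHT (1.79 ± 0.07 on the log2 scale, SE, with 3 arrays a group, at a limma adjusted p = 2.13e-14) and 2.89-fold with DHT (log2 1.53 ± 0.07, limma adjusted p = 3.03e-13).

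SLC3A2, the heavy chain that brings SLC7A5 and SLC7A11 to the cell surface, read 2312, 2400 and 2352 on dox arrays, against 1055, 1074 and 995.6 on vehicle arrays. On DHT with dox arrays it read 2546, 2695 and 2620, against 1257, 1222 and 1327 on DHT arrays. The dox groups did not overlap the others, and the change was 2.26-fold without DHT (log2 1.18 ± 0.07, limma adjusted p = 1.31e-11) and 2.07-fold with it (log2 1.05, limma adjusted p = 6.81e-11). Its second probe moved likewise, by 1.32 and 1.42 on the log2 scale.

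SLC7A1, the importer of arginine and lysine, read 1838, 1796 and 1898 on dox arrays, against 1237, 1194 and 1047 on vehicle arrays. With DHT the values were 1954, 2024 and 1836 on DHT with dox arrays, against 1327, 1261 and 1401 on DHT arrays. Again the arrays with dox lay above all others. The log2 change was 0.67 ± 0.07 (SE, limma adjusted p = 4.6e-07) in dox against vehicle and 0.54 ± 0.07 (limma adjusted p = 7.74e-06) in DHT with dox against DHT.

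SLC1A5, which takes up glutamine and other small neutral amino acids, averaged 1908 ± 78.0 on dox arrays against 1576 ± 240.0 on vehicle arrays (SD, n = 3 each), and 1826 ± 41.99 on DHT with dox arrays against 1500 ± 31.7 on DHT arrays. It rose by 0.29 and 0.28 on the log2 scale (limma adjusted p = 0.0128 and 0.0135). The first call was lost without vehicle replicate 3 (0.17) or dox replicate 2 (0.25), at limma adjusted p of 0.115 and 0.0535. SLC38A1, a sodium-coupled importer of glutamine and alanine, changed the other way by its brighter probe. It averaged 2352 ± 187 on dox arrays against 2972 ± 243 on vehicle arrays (log2 -0.34, limma adjusted p = 0.015), and 2137 ± 119 on DHT with dox arrays against 2584 ± 514 on DHT arrays (log2 -0.26, not called). Its other probe changed by 0.14 and 0.24, so the mean of both probes gave -0.10 (limma adjusted p = 0.458) in dox against vehicle. That call was also lost without vehicle replicate 2 or dox replicate 2 (-0.29 each).

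The remaining transporters did not pass in either dox comparison. SLC38A2, the amino-acid-starvation-induced relative of SLC38A1, averaged 3419 on dox arrays against 3807 on vehicle arrays, and 3022 on DHT with dox arrays against 3237.5 on DHT arrays. SLC7A2, an importer of cationic amino acids, changed by 0.15 and 0.18 on the log2 scale, SLC43A1, a facilitator of large neutral amino acids, by 0.12 and -0.003, and the glycine transporter SLC6A9 by 0.11 and -0.19. SLC7A11, which imports cystine in exchange for glutamate, lay near the limit, at 159 ± 2.85 on dox arrays and 157 ± 10.8 on DHT with dox arrays, against 149 ± 15.2 on DHT arrays. It was not above the limit on any vehicle array. SLC1A4, a carrier of serine and alanine whose promoter holds the element, was above the limit on 0 arrays. The transporter calls in dox against vehicle were 4 higher and 1 lower among 10 tested, and with DHT 4 higher and 0 lower. Without DHT these are 40.0% and 10.0%, where 16.1% and 16.7% of all genes were called. With DHT they are 40.0% and 0%, where 14.3% and 19.2% were.

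**Figure D2:**
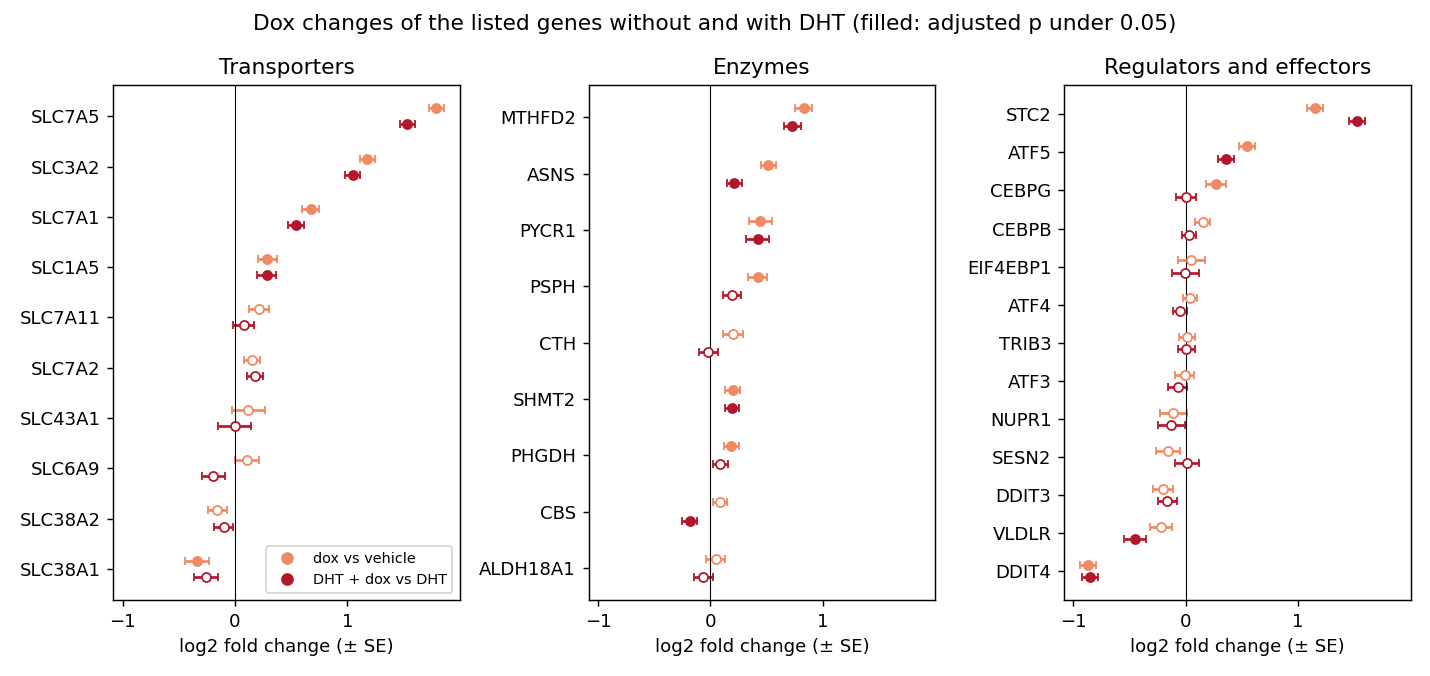
Log2 fold change (± SE from limma, n = 3 arrays per group) of each of the 32 genes tested in dox against vehicle (orange) and in DHT with dox against DHT (dark red), by role. Filled points passed an adjusted p of 0.05. SLC7A5 has the highest value without DHT (1.79), and DDIT4 the lowest in each comparison.

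Among the enzymes, the mitochondrial folate enzyme gene MTHFD2, which oxidises the one-carbon units that serine gives, changed most. It read 2479, 2234 and 2317 on dox arrays, against 1467, 1292 and 1208 on vehicle arrays. With DHT it read 2350, 2042 and 2242 on DHT with dox arrays, against 1283, 1313 and 1398 on DHT arrays. The groups with dox did not overlap those without it, and the change was 1.78-fold (log2 0.83 ± 0.08, limma adjusted p = 5.91e-08) and 1.66-fold (log2 0.73, limma adjusted p = 3.28e-07). SHMT2, which feeds MTHFD2 by splitting serine, rose by 0.20 and 0.19 (limma adjusted p = 0.0195 and 0.0212). Both SHMT2 calls were lost without single arrays: vehicle replicate 1 (0.16) and dox replicates 1 (0.17) and 3 (0.19) in the first, and DHT replicates 1 (0.17) and 3 (0.19) and DHT with dox replicate 2 (0.18) in the second, which was 0.30 with housekeeping scaling.

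ASNS, the asparagine synthetase and a classical ATF4 target whose promoter is shown above, averaged 1452 ± 71.0 on dox arrays against 1015 ± 16.6 on vehicle arrays (SD, n = 3 each). On DHT with dox arrays it averaged 1483 ± 64.4, against 1280 ± 44.9 on DHT arrays. The log2 changes were 0.52 ± 0.07 (SE, limma adjusted p = 4.9e-06) and 0.21 ± 0.07 (limma adjusted p = 0.0203). The second was lost without DHT replicate 2 (0.19) or 3 (0.21) or DHT with dox replicate 2 (0.18), and the other ASNS probe changed by 0.23 and 0.28. PYCR1, which makes proline, rose by 0.45 ± 0.10 and 0.42 ± 0.10 (limma adjusted p = 0.00197 and 0.0031), at 541 ± 25.3 on dox arrays against 398 ± 35.3 on vehicle arrays.

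The 3 enzymes of serine synthesis from glucose had different calls. PHGDH, the first step, changed by 0.18 in dox against vehicle (limma adjusted p = 0.0397) and 0.09 with DHT, and the first value lost its call without any 1 of 5 arrays (vehicle replicates 1 and 3 and dox replicates 1, 2 and 3, 0.16 to 0.19) and in 4 other settings. PSAT1, the second step, was above the limit on 1 of 12 arrays by 1 of its probes and on 0 by the other. PSPH, the last step, rose by 0.42 ± 0.08 without DHT (limma adjusted p = 0.000452) and stood at 0.19 with it, not called. Its second probe changed by 0.34 and 0.27, and PSPH shares sequence with a pseudogene copy, so its level is uncertain. ALDH18A1, the first enzyme of proline synthesis, changed by 0.05 and -0.06, and CTH, which makes cysteine, by 0.20 and -0.02, neither of them called. CBS, the enzyme before CTH, changed by 0.09 without DHT, and fell by 0.19 in DHT with dox against DHT (limma adjusted p = 0.0304). That call was lost without DHT replicate 1 (-0.19) or 3 (-0.15), DHT with dox replicate 1 (-0.19) or 2 (-0.17), with housekeeping scaling (-0.08) and with no filter on dim probes (-0.19), and a near-identical copy of CBS may share its probe. ALDH1L2, a mitochondrial folate enzyme, was above the limit on 5 arrays and in 0 groups by its mean. Enzyme calls numbered 6 higher and 0 lower of 9 tested in dox against vehicle, and 4 higher and 1 lower with DHT. Without DHT these are 66.7% and 0%, where 16.1% and 16.7% of all genes were called. With DHT they are 44.4% and 11.1%, where 14.3% and 19.2% were.

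ATF4 itself, tested by its brightest probe, did not pass in any comparison. Its brightest probe ranged from 6144 to 7198 over all 12 arrays and changed by 0.04 ± 0.06 (SE, limma adjusted p = 0.716) in dox against vehicle and by -0.05 in DHT with dox against DHT. The groups overlapped by this probe. A second probe changed by -0.01 and 0.09, and the third by 0.27 and 0.26. The third is dim, with a mean of 175 on vehicle arrays and 220 on DHT with dox arrays. It read 206.2 to 234.7 on DHT with dox arrays, above the 174.1 to 199.6 on DHT arrays. Neither of these 2 probes was tested on its own. These are mRNA values, and ATF4 is regulated largely through its translation.

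TRIB3, DDIT3, ATF3, SESN2, CEBPB, NUPR1 and EIF4EBP1 did not pass in either dox comparison. TRIB3, a pseudokinase that feeds back on ATF4, averaged 3149 ± 182 on dox arrays against 3124 ± 139 on vehicle arrays (SD, n = 3 each), and 2721 ± 160 on DHT with dox arrays against 2716 ± 224 on DHT arrays. DDIT3, which encodes the pro-apoptotic factor CHOP, changed by -0.20 and -0.16, ATF3 by -0.01 and -0.07, and SESN2, a leucine sensor that restrains mTORC1, by -0.16 and 0.01. CHAC1, which degrades glutathione, and the secreted hormone gene FGF21 were not tested, being above the limit on 0 arrays, although their promoters hold the element. CEBPB, a partner of ATF4, changed by 0.15 and 0.03. The stress regulator NUPR1 changed by -0.11 and -0.13, and EIF4EBP1, which blocks cap-dependent translation, by 0.05 and -0.004. Some of these genes lay near the background limit. By the probes tested, ATF3 read 164.1 to 200.3, SESN2 139.5 to 200.9, NUPR1 130.5 to 185.2 and EIF4EBP1 144.0 to 212.2. SESN2 was above the limit on 10 arrays, NUPR1 on 6 and EIF4EBP1 on 11. Background compresses folds of such dim probes, so their small values do not show that these genes were unchanged.

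ATF5, a relative of ATF4 and one of its targets, rose in both settings, to 1669 ± 43.7 on dox arrays against 1144 ± 53.0 on vehicle arrays, and to 1706 ± 144 on DHT with dox arrays against 1328 ± 32.6 on DHT arrays (SD, n = 3 each). The log2 changes were 0.54 ± 0.07 (SE, limma adjusted p = 4.8e-06) and 0.36 ± 0.07 (limma adjusted p = 0.000541). CEBPG, another ATF4 partner, rose by 0.27 without DHT (limma adjusted p = 0.0205) and stood at 0.003 with DHT. That call was lost without vehicle replicate 2 or 3 or dox replicate 1 (0.23 each) or dox replicate 3 (0.27), at limma adjusted p of 0.0534 to 0.0863.

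STC2, a secreted glycoprotein induced by ATF4 and, in breast cells, by estrogen, changed most among the regulators. It read 4078, 4466 and 4024 on dox arrays, against 1846, 1764 and 2068 on vehicle arrays. On DHT with dox arrays it read 4709, 5223 and 4754.5, against 1654, 1695 and 1745 on DHT arrays. All arrays with dox were above all others. The change was 2.22-fold without DHT (log2 1.15 ± 0.07, limma adjusted p = 9.09e-11) and 2.88-fold with it (log2 1.53, limma adjusted p = 8.33e-13).

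DDIT4, an inhibitor of mTORC1 induced by stress, low oxygen and glucocorticoids, fell. It read 1899, 1666 and 1904 on dox arrays, against 3124, 3613 and 3264 on vehicle arrays. On DHT with dox arrays it read 1538, 1657 and 1578, against 2804, 2912 and 2892 on DHT arrays. Every array with dox was below every array without it. It was 1.83-fold lower without DHT (log2 -0.87 ± 0.07, limma adjusted p = 7.08e-09) and 1.80-fold lower with it (log2 -0.85, limma adjusted p = 9.06e-09). VLDLR, a lipoprotein receptor induced by ATF4, fell by 0.45 in DHT with dox against DHT (limma adjusted p = 0.00099) and stood at -0.22 without DHT. It is dim, at 221 ± 5.74 on DHT with dox arrays against 304 ± 37.0 on DHT arrays. With its second, undetected probe averaged in it gave -0.19 (limma adjusted p = 0.0647), and with background subtracted -0.84. Regulator calls were 3 higher and 1 lower of 13 tested without DHT, and 2 higher and 2 lower with it. Without DHT these are 23.1% and 7.69%, where 16.1% and 16.7% of all genes were called. With DHT they are 15.4% and 15.4%, where 14.3% and 19.2% were.

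Set against the promoter letters, the 10 genes that hold TGATGNAA included 7 tested, of which 5 were called higher in dox against vehicle (ASNS, CEBPG, SLC1A5, SLC3A2 and SLC7A1), 1 lower (SLC38A1) and 1 not called (ATF3). Of the 19 genes with a promoter entry and no match, 18 were tested and 5 were higher (SLC7A5, STC2, MTHFD2, ATF5 and PHGDH), 1 lower (DDIT4) and 12 not called. Of these calls, those of CEBPG, SLC1A5 and SLC38A1 with a match and PHGDH without one were lost without single arrays. In DHT with dox against DHT, CEBPG, SLC38A1 and PHGDH were not called, and VLDLR and CBS, without a match, were called lower. Of the 3 largest rises in dox against vehicle, SLC7A5 (1.79) and STC2 (1.15) had no match in the window and SLC3A2 (1.18) had one. Of all genes tested, 16.1% were called higher and 16.7% lower in dox against vehicle. These shares were not worked out for all genes with and without the letters. The difference between the listed genes with and without a match was not tested.

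Few of these genes changed with DHT alone, and by small amounts. In DHT against vehicle 4 of 32 were higher and 0 lower, 12.5% where 7.6% of all genes tested were called, 4.5% higher and 3.1% lower. None of the 4 changed by 1.5-fold, where 0.94% of all genes did. SLC7A5 rose by 0.42 ± 0.07 (SE, limma adjusted p = 0.000399), with every DHT array above every vehicle array, as listed above. SLC3A2 rose by 0.28 (limma adjusted p = 0.00926), lost without vehicle replicate 3 or DHT replicate 3 (0.25 each) and with the mean of both probes (0.28, limma adjusted p = 0.0549). ASNS rose by 0.33 (limma adjusted p = 0.00413), but its other probe changed by -0.10 and the mean of both gave 0.12 (limma adjusted p = 0.377). CBS averaged 2110 ± 109 on DHT arrays against 1705 ± 23.8 on vehicle arrays (log2 0.31, limma adjusted p = 0.00493). The regulators had 0 calls among 13 by limma, and CEBPG (0.26) and ATF5 (0.22) had the highest values. Of the 13, 5 had an unadjusted p under 0.05, where 2567 of the 12122 genes tested did.

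With dox present, fewer still were called. In DHT with dox against dox, 0 of 32 were higher and 1 was lower (4.27% of all genes tested were called, 2.04% higher and 2.24% lower). Of the 32, 9 had an unadjusted p under 0.05, where 2296 of the 12122 genes tested did. The listed gene called lower was CTH, at 172 ± 6.03 on DHT with dox arrays against 226 ± 16.3 on dox arrays (log2 -0.39 ± 0.09, limma adjusted p = 0.0125). It was lost without dox replicate 1 (-0.34) or DHT with dox replicate 3 (-0.36) and with the mean of its 3 probes (-0.25), and with background subtracted it was -0.99. SLC7A5 stood at 0.16, SLC3A2 at 0.15, STC2 at 0.22 and DDIT4 at -0.19, none of them called.

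**Figure D3:**
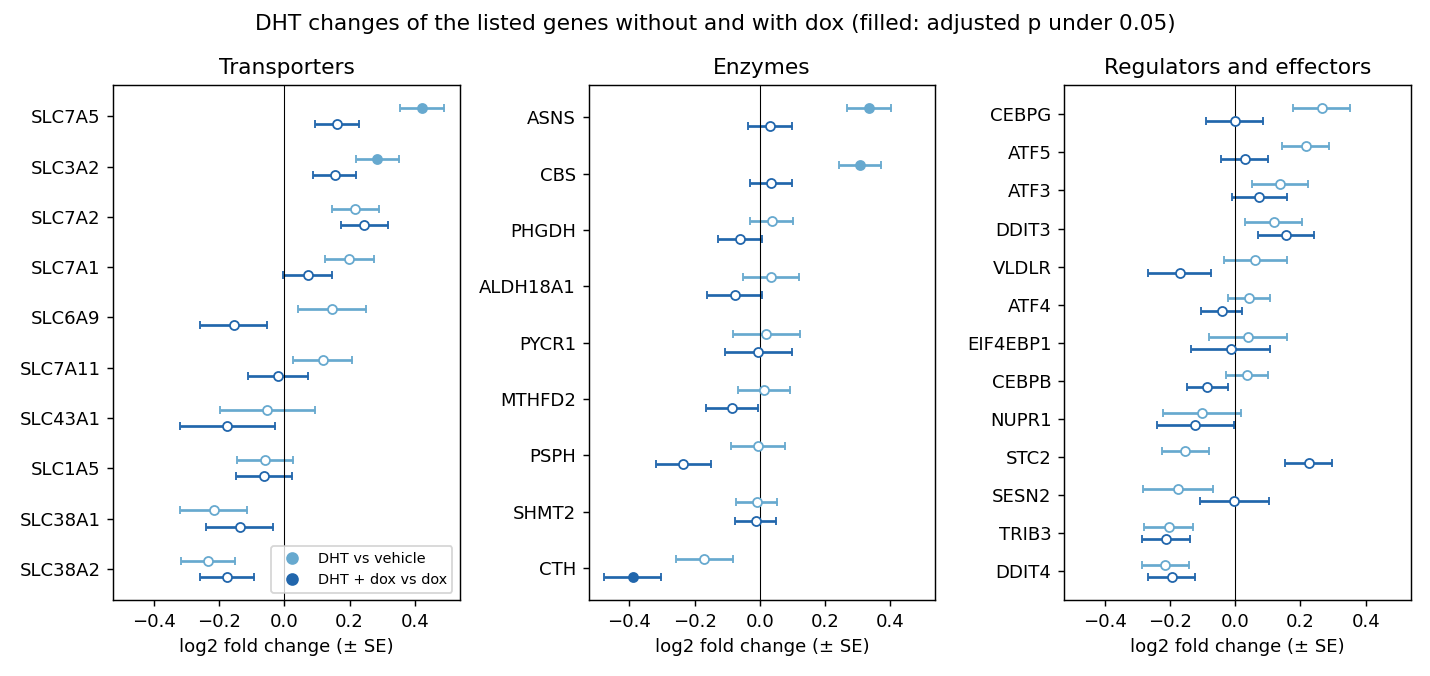
Log2 fold change (± SE from limma, n = 3 arrays per group) of each of the 32 genes tested in DHT against vehicle (light blue) and in DHT with dox against dox (dark blue), by role. Filled points passed an adjusted p of 0.05. Only SLC7A5, SLC3A2, ASNS and CBS are filled without dox and CTH with dox, and the scale is narrower than that of the dox changes.

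The interaction asks whether the DHT change differs with dox, or equally whether the dox change differs with DHT. By limma 0 of the 32 genes passed, where 0.289% of all genes tested did. Of the 32, 5 had an unadjusted p under 0.05, where 1220 of the 12122 genes tested did. STC2 had the highest interaction, 0.38 ± 0.10 on the log2 scale (SE, limma adjusted p = 0.157), and ASNS the lowest, -0.30 ± 0.10 (limma adjusted p = 0.26). The others with an unadjusted p under 0.05 were CBS at -0.27 ± 0.09, CEBPG at -0.27 ± 0.12 and SLC7A5 at -0.26 ± 0.10. A missed threshold does not show that the dox changes were equal with and without DHT. SEs of the interaction ranged from 0.09 to 0.21 over the 32 genes.

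With both agents against vehicle, a comparison that shares arrays with those above, 12 were higher and 5 lower (37.5% and 15.6%, where 36.8% of all genes tested were called, 16.6% higher and 20.2% lower), and 6 were called at 1.5-fold or more (6.89% of all genes). SLC7A5 was 3.88-fold higher (log2 1.95 ± 0.07, limma adjusted p = 7.75e-15), STC2 2.59-fold and SLC3A2 2.52-fold higher, and DDIT4 was 2.09-fold lower (log2 -1.07). SLC7A2, SLC38A2 and TRIB3 passed only in this comparison among those run. SLC7A2 averaged 2227 ± 144 on DHT with dox arrays against 1690 ± 25.6 on vehicle arrays (log2 0.40, limma adjusted p = 0.000166), and 0.12 (not called) with its 2 undetected probes averaged in. SLC38A2 averaged 3022 ± 233 against 3807 ± 262 (log2 -0.33, limma adjusted p = 0.00333). TRIB3 changed by -0.20 (limma adjusted p = 0.038), lost without vehicle replicate 1 (-0.17) or 3 (-0.19) or DHT with dox replicate 2 (-0.16) or 3 (-0.20) and with housekeeping scaling (-0.14). The calls of CEBPG (0.27), SHMT2 (0.18) and SLC1A5 (0.22) in it were also lost without single arrays, down to 0.20 without DHT with dox replicate 3, 0.15 without vehicle replicate 1 and 0.10 without vehicle replicate 3. With the mean of all probes those of SLC38A1 (-0.16) and VLDLR (-0.12) were lost.

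Other genes of the same pathways were examined as 4 lists. Among 16 other amino acid transporters tested, 4 were higher and 0 lower in dox against vehicle, and 3 higher and 2 lower in DHT with dox against DHT. These are 25.0% and 0% without DHT, where 16.1% and 16.7% of all genes were called, and 18.8% and 12.5% with DHT, where 14.3% and 19.2% were. SLC6A14, a concentrative importer of neutral and cationic amino acids, averaged 590 on dox arrays against 357 on vehicle arrays (log2 0.72 ± 0.09, limma adjusted p = 9.18e-07), and 579 on DHT with dox arrays against 267 on DHT arrays (log2 1.12). In DHT against vehicle it fell by 0.42 (limma adjusted p = 0.00337), and by 0.70 with background subtracted. SLC16A10, an exporter of aromatic amino acids, rose by 0.45 without DHT, and by 1.34 with background subtracted. With DHT, SLC38A10 rose by 0.27, a call lost without DHT with dox replicate 1 (0.23) and turned to -0.0089 by the mean of its probes. SLC7A6 and the taurine carrier SLC6A6 fell by 0.39 and 0.38 there, and by 0.65 and 0.70 with background subtracted.

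Among 23 other amino acid and folate enzymes tested, 5 were higher and 3 lower in dox against vehicle, and 6 higher and 5 lower in DHT with dox against DHT. These are 21.7% and 13.0% without DHT and 26.1% and 21.7% with it, against the same shares of all genes. ASS1, which makes the arginine precursor argininosuccinate, averaged 2188 on dox arrays against 1188 on vehicle arrays (log2 0.88 ± 0.08, limma adjusted p = 2.92e-08), and rose by 0.73 with DHT. MTHFD1L, which releases formate from mitochondria downstream of MTHFD2, rose by 0.68 in each. ALDH4A1, of proline breakdown, fell by 0.73 and 0.87, and the glycine cleavage gene AMT fell by 0.44 without DHT (by 1.19 with background subtracted). GCLC, of glutathione synthesis, fell by 0.38 with DHT, a call lost without DHT with dox replicate 1 (-0.22). In DHT against vehicle 3 were higher and 2 lower, MTHFD1L by 0.37 (limma adjusted p = 0.00682) and OAT by 0.37, with PRODH at -0.31 and AMT at -0.27 (-0.67, not called, with background subtracted). MTHFD1L rose by 0.37 also in DHT with dox against dox, lost without dox replicate 1 (0.34) or DHT with dox replicate 3 (0.33). The OAT call was lost without vehicle replicate 3 (0.28) or DHT replicate 1 (0.35) or 3 (0.33). The PRODH call was lost without any 1 of 8 arrays, among them each vehicle and each DHT array (-0.36 to -0.28), and the AMT call without any 1 of 10, again with all of these (-0.31 to -0.22).

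Of 18 genes tested that set eIF2 activity, 3 were higher and 2 lower in dox against vehicle, and 1 higher and 3 lower in DHT with dox against DHT, none of them by 1.5-fold. The shares, 16.7% higher and 11.1% lower without DHT and 5.56% and 16.7% with it, were near or below those of all genes. The genes of the kinases for heme shortage (EIF2AK1) and endoplasmic reticulum stress (EIF2AK3) fell, by 0.24 and 0.30 without DHT (limma adjusted p = 0.00843 and 0.00598) and by 0.37 and 0.25 with it. The mean of its probes gave EIF2AK1 -0.14 without DHT (not called), and the EIF2AK3 call with DHT was lost without DHT replicate 3 (-0.24) or DHT with dox replicate 1 (-0.22) and with housekeeping scaling (-0.15), and was -0.38 with background subtracted. EIF2S1, the subunit that is phosphorylated, rose by 0.25 without DHT, a call lost without vehicle replicate 1 or 2 or dox replicate 1 or 2 (0.20 to 0.23). The exchange factor genes EIF2B1 without DHT (0.21), EIF2B3 with DHT (0.35) and EIF2B2 in DHT against vehicle (0.23) lost their calls without any 1 of 9, 4 and 6 arrays. The lowest of these values were 0.13 without dox replicate 2, 0.18 without DHT with dox replicate 3, and 0.20 without vehicle replicate 2.

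Among 29 genes by which mTORC1 senses amino acids, 3 were higher and 5 lower in dox against vehicle, and 4 higher and 8 lower in DHT with dox against DHT. These are 10.3% and 17.2% without DHT, where 16.1% and 16.7% of all genes were called, and 13.8% and 27.6% with DHT, where 14.3% and 19.2% were. SEH1L, shared by the nuclear pore and the GATOR2 sensor complex, averaged 913 on dox arrays against 582 on vehicle arrays (log2 0.65 ± 0.08, limma adjusted p = 1.29e-06) and rose by 0.59 with DHT. Its GATOR2 partner MIOS fell by 0.43 and 0.73, and another partner, SEC13, rose by 0.28 with DHT. NPRL3, of the GATOR1 complex, rose by 0.39 without DHT, and by 0.22 with the mean of its probes. The lysosomal scaffold gene LAMTOR3 fell by 0.38 without DHT (-0.12, not called, with the mean of its probes), and TSC2, an inhibitor of mTORC1, by 0.45 with DHT (by 0.25 with the mean of its probes and 0.76 with background subtracted). In DHT against vehicle RRAGB was at 0.34, MLST8 at -0.35 and LAMTOR4 at -0.28, each called and each lost without single arrays. The values nearest to 0 among those were 0.23 for RRAGB without vehicle replicate 2 (0.21 with the mean of its probes), -0.23 for MLST8 without DHT replicate 2 and -0.21 for LAMTOR4 without DHT replicate 3.

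**Figure D4:**
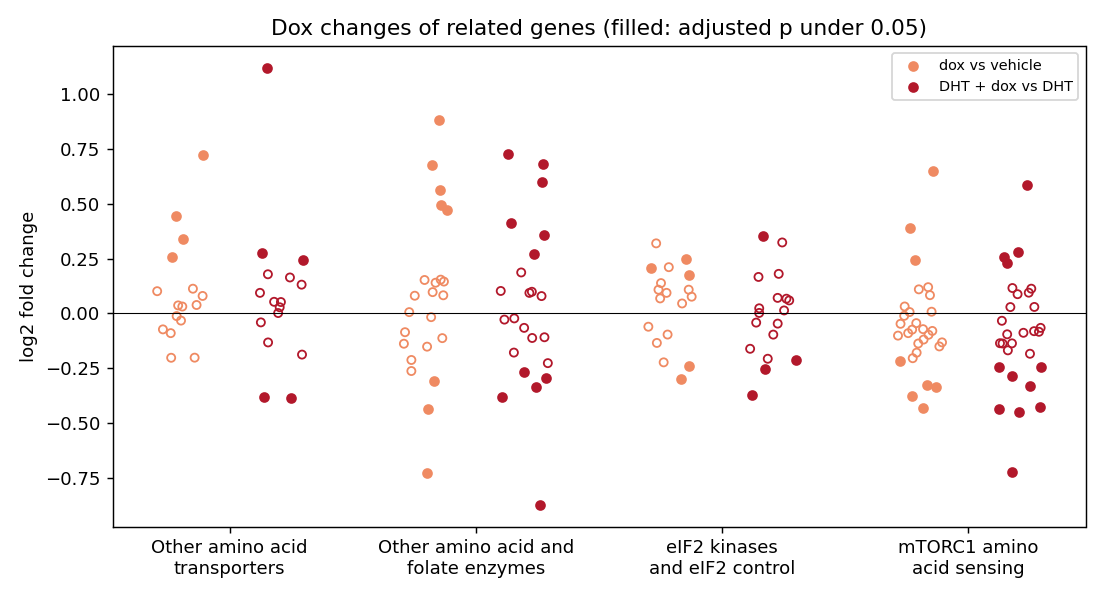
Log2 fold change of each gene tested in 4 lists of related genes, in dox against vehicle (orange) and in DHT with dox against DHT (dark red), with filled points for an adjusted p of 0.05 and sideways scatter only to part the points. SLC6A14 reaches 1.12 with DHT among the transporters, while the eIF2 genes stay between -0.37 and 0.35.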

How the data were processed

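The authors deposited one table of linear intensities per probe. The submitters' processing notes name GenomeStudio, with no version, and the normalization and background step were not stated there. Once sorted, the 12 columns differed by at most 0.8 units, so all arrays hold nearly the same set of values, as quantile normalization leaves them. The deposited intensities were therefore not normalized again, a floor of 20 was set, with 0 values below it, and log2 was taken. A shift of all genes together between groups cannot be seen in such values. Of 47230 probes, 30113 had 1 gene symbol, 8 several and 17109 none in the platform annotation, and 30074 were renamed through their gene identifier in RefSeq (GRCh38.p14). The background limit was the 95th percentile of 640 probes for 535 genes of olfactory receptor, keratin-associated, taste receptor and defensin families. A gene was tested by its probe with the highest mean among probes whose group mean of log2 values passed the limit in at least 1 group. Signal over background limits precision, since background remains in the values and compresses folds of dim probes.

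The 12 arrays went into a single limma 3.58.1 model (R 4.3.3, eBayes with trend) holding a mean for each of 4 groups. P-values are two-sided and adjusted by Benjamini-Hochberg over 12122 genes, with a threshold of 0.05. Plots used Python 3.11.15 and matplotlib 3.10.9. The labels do not say how the biological replicates were grown, so the spread may be partly technical. Genes changed by at least 1.5-fold in a single-agent comparison are given array by array, the 2 largest calls per direction are named for related lists, and others are summarised. The 38 genes and all lists were chosen with earlier results of these data known. Alternatives covered the replicate block, dim-probe filters, probe averaging, background subtraction, housekeeping scaling, the arrays fitted, the prior trend and leaving out each array.

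Deviations of arrays with the same replicate number correlated at -0.13 to 0.23 across groups, against -0.22 to 0.17 for different numbers. The ranges overlapped, and the highest value was that of vehicle replicate 1 with dox replicate 1. These values do not show whether arrays of the same number belong together.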

Additional observations from a re-analysis of the deposited data

How the results depend on the processing

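Of 89 calls of single genes given above, 54 held under all 20 alternatives, among them those of SLC7A5, SLC7A1, STC2, MTHFD2, ATF5 and DDIT4, and 1 reversed (SLC38A10 in DHT with dox against DHT, -0.0089 with the mean of its probes). Leaving out 1 array gave 12 to 15 of the listed genes called in dox against vehicle, 10 to 14 in DHT with dox against DHT, 3 to 5 in DHT against vehicle, 0 to 1 in DHT with dox against dox, 13 to 17 in DHT with dox against vehicle and 0 in the interaction. The mean of all probes left 2 in DHT against vehicle and 0 in DHT with dox against dox. DHT with dox against dox gave 2 with a filter on all arrays and 3 with housekeeping scaling. Over all genes, the calls in DHT against vehicle numbered 549, 556 and 605 without vehicle replicate 3, DHT replicate 1 and DHT replicate 2, against 921 with all arrays.

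Housekeeping scaling, on 10 genes, moved the median of all genes most in DHT with dox against DHT (0.0852, against -0.0164 without it) and turned the split of calls in DHT with dox against DHT to 3050 higher and 1418 lower, against 1734 and 2332. For the listed genes it gave 13 higher and 2 lower there, and 15 and 2 in dox against vehicle. With the replicate number as a block, which the labels do not tie to a batch, the listed genes called were 14, 13, 5, 1, 17 and 0 in the order of comparisons above, and PHGDH lost its call (0.18, limma adjusted p = 0.053). Dim genes have compressed folds, and the causes of lost calls were not tested.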
